A study of Drosophila melanogaster with 384 samples.

Results

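The genes described here are the odorant (Or), gustatory (Gr) and ionotropic (Ir) receptor genes of Drosophila melanogaster, chosen as every FlyBase gene whose symbol is Or, Gr or Ir followed by a digit. They were 186 of the 40020 gene models counted, with 60 Or, 60 Gr and 66 Ir genes, of which 179 are annotated as protein coding and 7 as pseudogenes. Odorant receptors detect volatile molecules in neurons of the antennae and maxillary palps, where each tuned receptor works as a channel together with the co-receptor Orco. Gustatory receptors sense sugars, bitter compounds and carbon dioxide in taste neurons, in a few antennal neurons and in internal organs. Ionotropic receptors derive from ionotropic glutamate receptors and detect acids, amines, salt, temperature and humidity, as complexes of a tuning receptor with the co-receptors Ir8a, Ir25a, Ir76b or Ir93a. Each receptor is typically expressed in small groups of sensory neurons, so that its transcripts are rare in RNA of a whole fly.

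RNA was sequenced from whole flies of 96 inbred, wild-derived DGRP lines, in 2 replicates per line and sex (384 libraries). Every sample came from mated flies aged 3 to 5 days, pooled as 30 males or 25 females, that had been reared on cornmeal-molasses-agar medium with 10% (v/v) ethanol, so that all groups shared the ethanol exposure and differed in sex and line. The questions asked of the receptor genes were which of them reached a testable level, which differed between males and females, and which varied among lines.

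Total counts per library were between 6482252 and 17422329 in males (median 10224504) and between 5360410 and 16354156 in females (median 10472988). All receptor genes together held 0.00862% of the counts. Their summed level was between 65.6 and 194 CPM in male libraries (median 96.1) and between 49.2 and 199.996 CPM in female libraries (median 71.1), where CPM is counts per 1000000 of the library size after TMM scaling. A few libraries stood apart. Replicate 1 of line 208 males counted 172 of the receptor genes (median of male libraries 122) and replicate 1 of line 911 females 182 (median of female libraries 89), and both had the highest summed receptor level of their sex. These 2 libraries, and 7 other female libraries, counted over 1.3 times the median number of gene models of their sex. They came from 9 lines, and the tests of sex, of line and of their interaction and the correlations over all lines were also run without those lines. Other libraries counted few receptor genes, down to 32 in a male library and 23 in a female library. No fit was run without lines chosen for such low numbers, and their part in the spread between replicates was not tested. In 12 female libraries the summed transcripts of testis and accessory gland markers exceeded 10 times the female median, and in 1 male library those of ovary markers exceeded 10 times the male median. Together these libraries came from 13 lines, without which the sex difference was fitted again.

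Most receptor genes were near the limit of detection. A mean of 5 counts per library was reached by 50 genes in males (15 Or, 13 Gr and 22 Ir) and by 23 genes in females (3 Or, 6 Gr and 14 Ir). Both sexes shared 22 of these genes, 28 reached the mean only in males, and Gr98b, a receptor of bitter taste neurons, reached it only in females. The remaining 135 genes stayed under it in both sexes. The median of the mean counts over all 186 genes was 1.94 in males and 0.979 in females, and 65 genes in males and 96 genes in females had a mean under 1 count. No count was found in any library for 2 Gr genes. Among receptors with a well-known role, the mean of 5 was not reached in either sex by the sugar receptors Gr5a, Gr64b, Gr64c, Gr64d and Gr64e, the carbon dioxide receptor subunit Gr21a, the pheromone receptors Or67d, Or65a and Or88a, the food odor receptors Or22a, Or42a, Or42b, Or35a and Or85a, the male courtship receptor Ir84a, or Gr28a, Gr39a and Gr89a. Gr64b and Gr64c, the 2 genes with no count, have the same annotated exons, and Gr64d and Gr64e share 97.3% and 99.1% of theirs, so that the counts of these 4 genes are uncertain. For the others, differences between the sexes or among lines were limited by depth.

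Per kilobase of annotated exon, the highest mean level in males was that of Or71a (3.28 CPM per kb), a maxillary palp receptor, followed by Ir76a (2.94), Ir62a (2.90) and Or43b (2.67). In females the order was headed by Ir7c (6.31 CPM per kb), followed by Or43b (3.83), Ir76a (3.02), Or71a (1.85) and Ir62a (1.80). Several of these genes lie within or across larger genes that are widely transcribed. Or71a and Ir62a lie within Plp and Iml1 on the same strand with no shared exon bases, and Or43b shares 575 exon bases with Cul1 on the other strand. Plp averaged 363 CPM in males and 288 CPM in females, Iml1 103 CPM in males and 89.3 CPM in females, and Cul1 201 CPM in males and 432.5 CPM in females. Whether reads of the larger gene entered the counts of the receptor was not tested. Of the 51 receptor genes at the mean of 5 in at least 1 sex, 21 overlapped another gene and 15 shared exon bases with one. Among the 3 Or genes with the highest level per kb in females was Or2a, with 0.434 CPM in males and 0.440 CPM in females, although its mean count stayed under 5 in each sex.

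The sex difference could be tested for 35 receptor genes, those with a mean of 5 counts over all libraries, and all of them passed the threshold of 0.05. The largest adjusted p was 0.0155, that of the pseudogene Ir47b, in edgeR's quasi-likelihood test with Benjamini-Hochberg adjustment over all transcripts, and it was 0.430 without replicate 2 and 0.415 with no filter on low counts. Males had the higher level of 30 genes and the lower level of 5 genes. Of all 18062 transcripts tested, 95.1% differed between the sexes, 59.1% with a higher and 36% with a lower level in males, so that passing the test did not set the receptors apart. As a median, the log2 fold change (males over females) was 0.93 over the 35 receptors and 0.39 over all transcripts tested. By family it was 1.22 over 7 Or genes, 1.06 over 10 Gr genes and 0.68 over 18 Ir genes. A higher level in males by over 1 on the log2 scale was found for 15 of the 35 receptors, against 29.5% of all transcripts, and a lower level by over 1 for 1 receptor, against 17.2% of all transcripts. A receptor could enter this comparison through its level in 1 sex alone, and among the 22 genes that reached the mean of 5 in both sexes, 17 were higher and 5 lower in males. Of these 22, only Gr28b (1.02), Gr59f (1.49), Ir41a (2.44), Ir75a (1.36), Ir76b (1.10) and Or63a (1.22) were higher by over 1, and only Ir7c (−3.61) lower. Both sexes reached the mean for 3 of the 7 Or, 5 of the 10 Gr and 14 of the 18 Ir genes tested. The medians and the share over 1 thus depend in part on genes that entered through males alone. Without the 9 lines that hold the libraries standing apart, 28 of 33 receptors tested were higher and 5 lower in males. In RNA of whole flies, fewer cells of a type and less RNA per cell cannot be told apart.

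**Figure D1:**
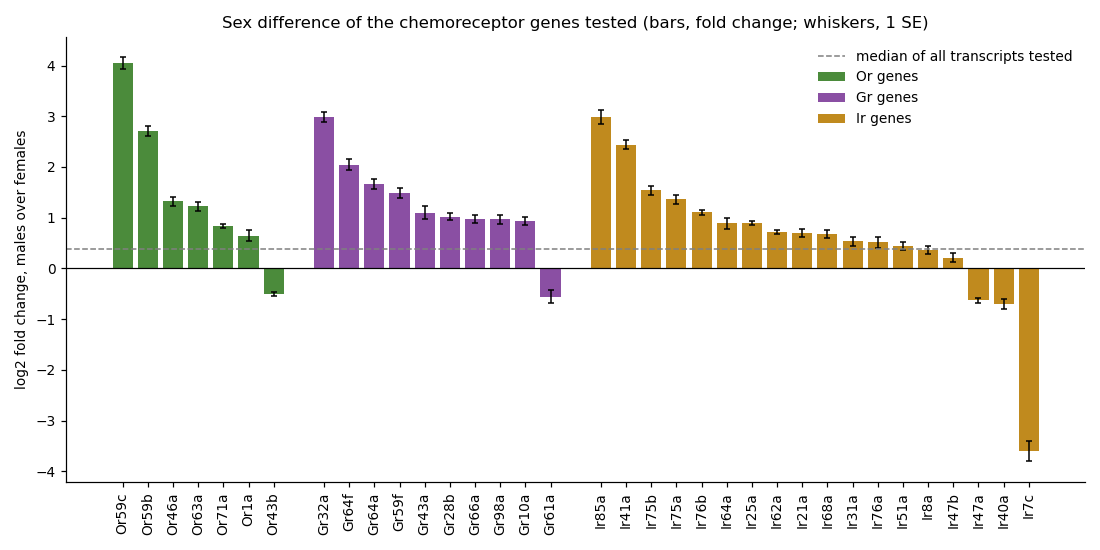
Log2 fold change of males over females for the 35 receptor genes tested (y axis; bars, edgeR estimate; whiskers, 1 SE from limma-trend), grouped as Or, Gr and Ir genes. The dashed line is the median of all transcripts tested (0.39); 30 genes lie above 0 and 5 below it, from 4.05 for Or59c to −3.61 for Ir7c.

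Among odorant receptors the largest difference was that of Or59c, a receptor of maxillary palp neurons. Over the 96 lines its level was lowest at 0.231, median 2.26 and highest at 5.38 CPM in males, and lowest at 0, median 0.0996 and highest at 1.12 CPM in females. Males had the higher level in all 96 lines, and the log2 fold change was 4.05 ± 0.11 (SE, n = 96 lines), or 16.5-fold. The standard error came from limma-trend, whose own estimate was 3.45, and with a term for flow cell it was 2.77. Its neighbour Or59b, a receptor for acetate esters in the antenna, lay between 0.496 and 5.72 CPM (median 2.60) in males and between 0 and 1.10 CPM (median 0.333) in females. Or59b was also higher in males in each of the 96 lines, with a log2 fold change of 2.71 ± 0.10 (SE). Both genes lie within CG43795 on the other strand, which averaged 17.1 CPM in males and 7.33 CPM in females, and the part of that gene in the difference was not tested.

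The other odorant receptors differed less. Or46a, a maxillary palp receptor, and Or63a, a receptor known from larvae, had log2 fold changes of 1.32 ± 0.09 and 1.22 ± 0.09, with males higher in 85 and 92 lines. Or46a overlaps CG12917 by 4 exon bases, and CG12917 averaged 19.0 CPM in males and 0.596 CPM in females. All 2450 exon bases of Or46a also lie in the exons of asRNA:CR43467 on the other strand, which averaged 0.255 CPM in males and 0.159 CPM in females. Or71a was 1.79-fold higher in males, at 4.69 ± 1.44 CPM in males and 2.65 ± 0.822 in females (SD over 96 lines), and Or1a, also known from larvae, was 1.56-fold higher. Or43b alone was lower in males, at 3.78 ± 0.815 CPM in males and 5.42 ± 1.27 CPM in females, with a log2 fold change of −0.50 ± 0.04. Its partner on the other strand, Cul1, was lower in males as well.

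Another 8 Or genes reached the mean of 5 in males alone and stayed under it over all libraries, and they are given by their levels, without a test. Or47b, which detects fly-produced fatty acid methyl esters, averaged 0.557 ± 0.252 CPM in males and 0.171 ± 0.157 CPM in females, and its level was higher in males in 88 of 96 lines. Or22b, a receptor for fruit esters, averaged 0.695 ± 0.817 CPM in males and 0.245 ± 0.231 CPM in females. Or23a averaged 0.646 ± 0.366 CPM in males and 0.0585 ± 0.126 CPM in females. It shares 69 exon bases on the same strand with Prosbeta4R2, which averaged 48.1 CPM in males and 0.146 CPM in females, so that the division of reads between the pair is uncertain. The other 5 genes, Or10a, Or13a, Or56a, Or59a and Or92a, averaged between 0.489 and 0.562 CPM in males and between 0.0276 and 0.331 CPM in females.

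Among gustatory receptors, the bitter receptor Gr32a, which also takes part in the recognition of male pheromone, had the largest difference. In males its level was lowest at 0.528, median 2.68 and highest at 6.44 CPM, and in females lowest at 0, median 0.277 and highest at 2.90 CPM. Males were higher in 95 of 96 lines, and the log2 fold change was 2.99 ± 0.10 (7.97-fold). Gr32a shares 164 exon bases with CG6230 on the other strand, which averaged 122 CPM in males and 68.8 CPM in females. The highest female level, that of line 383, rested on 45 counts in replicate 2 and 4 counts in replicate 1. Gr66a, the receptor that marks bitter taste neurons, was 1.97-fold higher in males (1.22 ± 0.41 CPM in males, 0.629 ± 0.291 CPM in females), and Gr28b, which has been linked to the sensing of warmth and light, 2.03-fold higher. Gr33a, a broadly needed bitter co-receptor, reached the mean of 5 in males alone and averaged 0.483 ± 0.332 CPM in males and 0.143 ± 0.140 CPM in females.

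The sugar receptors did not move in 1 direction. Gr64f, a co-receptor for most sugars, was 4.13-fold higher in males, with a median of 0.876 CPM in males and 0.209 CPM in females, and Gr64a, which responds to several disaccharides, was 3.17-fold higher. Males were higher in 94 lines for Gr64f and in 92 lines for Gr64a. Gr43a, the fructose receptor of taste neurons and of the brain, had a median of 0.280 CPM in males and 0.226 CPM in females, and males were higher in 64 of 96 lines. Its fitted log2 fold change was 1.10 ± 0.13, with the SE from limma-trend, whose own estimate was 0.59. The fold change lay between 0.35 in limma-trend with a term for flow cell and 1.29 without replicate 2. On the other strand Gr43a shares 155 exon bases with Dhx15 (64.2 CPM in males, 136.8 CPM in females) and Gr64f 53 with CG11593 (24.4 CPM in males, 54.8 CPM in females). Gr61a, a glucose receptor, had a median of 0.836 CPM in males and 1.91 CPM in females. Its fitted log2 fold change was −0.56 ± 0.13, while its mean was 2.22 ± 3.29 CPM in males and 2.13 ± 0.960 CPM in females. Males were higher than females in only 19 of 96 lines for Gr61a, and the wide range in males is described with the line effect. The fold change of Gr61a was −0.34 without the 13 lines with transcripts of the other sex, and −0.31 without replicate 2, where the adjusted p was 0.0557 in edgeR's quasi-likelihood test with Benjamini-Hochberg adjustment. Gr63a, which forms the carbon dioxide receptor with Gr21a, reached the mean of 5 in males alone and averaged 0.552 ± 0.403 CPM in males and 0.262 ± 0.297 CPM in females.

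Gr59f, Gr98a and Gr10a were higher in males as well, by 2.81-fold, 1.95-fold and 1.91-fold. The annotated exons of Gr10a are the same bases as those of Or10a, and the division of reads between them is uncertain. Gr8a, a receptor for the plant toxin L-canavanine, averaged 0.803 ± 1.13 CPM in males and 0.145 ± 0.294 CPM in females.

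Ir7c, a receptor of taste neurons that takes part in the response to high salt, was far higher in females, with the largest difference in that direction among the 35 receptors tested. Its level was lowest at 0, median 1.63 and highest at 5.18 CPM in males, against lowest at 3.20, median 14.0 and highest at 28.1 CPM in females. Not 1 of the 96 lines had a higher level in males. The mean count was 14.6 in males and 149 in females. Its log2 fold change was −3.61 ± 0.20 (12.2-fold higher in females), and −4.09 in limma-trend, which gave the SE. Gr98b and Ir7b, whose levels were too low for this test, also had a far higher mean count in females. It was 0.448 in males and 5.59 in females for Gr98b, and 0.224 in males and 3.07 in females for Ir7b. For Gr98b few lines were high in females, with 4.37 to 8.97 CPM in 5 lines and a median of 0.0478 CPM in the other 91. Ir40a, a receptor for dry air, Ir47a and the 2 genes already given, Gr61a and Or43b, made up the rest of the receptors that were lower in males. Ir40a averaged 1.03 ± 0.646 CPM in males and 1.75 ± 1.18 CPM in females (log2 fold change −0.70 ± 0.10), and Ir47a averaged 2.79 ± 0.582 CPM in males and 4.54 ± 1.69 CPM in females (−0.63 ± 0.05). Ir47a lies within SLO2 on the same strand, which averaged 35.0 CPM in males and 44.6 CPM in females.

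The ionotropic co-receptors were higher in males by different amounts. Ir25a, the most widely expressed of them, averaged 5.21 ± 0.953 CPM in males and 2.87 ± 0.731 CPM in females and was higher in males in 95 of 96 lines (log2 fold change 0.89 ± 0.04). Ir76b averaged 2.75 ± 0.613 CPM in males and 1.303 ± 0.470 CPM in females (1.10 ± 0.06), and Ir8a, the co-receptor of acid receptors, averaged 0.667 ± 0.268 CPM in males and 0.522 ± 0.247 CPM in females (0.37 ± 0.07). For Ir8a the level in males was the higher one in 65 of 96 lines. Without replicate 2 it did not pass the threshold, with a log2 fold change of 0.25 and an adjusted p of 0.0534 in edgeR's quasi-likelihood test with Benjamini-Hochberg adjustment. Ir93a, the co-receptor of the temperature and humidity receptors, reached the mean of 5 in males alone, at 0.615 ± 0.460 CPM in males and 0.185 ± 0.251 CPM in females.

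The tuning receptors with the largest differences were Ir85a and Ir41a. Ir85a was lowest at 0.455, median 2.33 and highest at 14.4 CPM in males, and lowest at 0, median 0.321 and highest at 1.74 CPM in females, with a log2 fold change of 2.98 ± 0.14. It shares 232 exon bases on the other strand with Pif1A, which averaged 60.2 CPM in males and 3.65 CPM in females, and the part of Pif1A in the difference was not tested. Ir41a, a polyamine receptor, was lowest at 0.645, median 3.12 and highest at 6.77 CPM in males, and lowest at 0.0441, median 0.529 and highest at 1.72 CPM in females. Males of all 96 lines were higher, with a log2 fold change of 2.44 ± 0.09, and no gene overlapping Ir41a was found in the annotation. The acid receptors Ir75a, Ir75b and Ir64a were 2.57-fold, 2.90-fold and 1.86-fold higher in males. The cooling receptor Ir21a and the moist air receptor Ir68a were 1.62-fold and 1.59-fold higher, while Ir40a was lower. Ir21a shares 2087 of its exon bases (79.4%) with asRNA:CR43609 on the other strand, which averaged 8.70 CPM in males and 4.63 CPM in females, and the part of that RNA in the difference was not tested. For the amine receptor Ir76a the fitted log2 fold change of 0.51 ± 0.11 and the means pointed in different directions, with 6.20 ± 4.36 CPM in males and 6.37 ± 6.46 CPM in females, and males were higher in 57 of 96 lines. The fold change of Ir76a lay between 0.28 without replicate 2 and 0.86 in DESeq2's Wald test, and that of Ir68a was 0.40 without replicate 2. The remaining Ir genes tested were also higher in males, Ir62a by 1.65-fold, Ir31a, a receptor of antennal neurons, by 1.45-fold, and the pseudogenes Ir51a and Ir47b by 1.35-fold and 1.16-fold. Ir75c, Ir94d and Ir100a reached the mean of 5 in males alone, with means between 0.546 and 0.596 CPM in males and between 0.0671 and 0.150 CPM in females. Ir94d shares 429 exon bases on the other strand with CG17380, which averaged 44.5 CPM in males and 0.0883 CPM in females.

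Other genes of chemosensation and of neurons moved alongside. The list of other chemosensory genes held 22, such as Orco, the odorant binding protein gene lush and the pickpocket channel gene ppk23. Of these 20 were in the table and 19 were tested, of which 18 were higher and 1 (ppk29) lower in males. Their median log2 fold change was 0.98. Orco averaged 10.2 CPM in males and 5.99 CPM in females, with a log2 fold change of 0.81. All 7 of the neuron markers tested (elav, nSyb, brp, Syt1, cac, Syx1A and Rdl) were higher in males, by 0.29 to 1.42 on the log2 scale with a median of 1.31, and their summed level was 732 CPM in males and 337 CPM in females. All 10 testis markers and all 7 accessory gland markers were higher and all 7 ovary markers tested were lower in males. Of 5 fat body markers tested 4 were lower in males, and of 5 midgut markers 1 was higher and 3 were lower. How far the make-up of the fly accounts for the differences of the receptors was not tested.

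Variation among lines was tested within each sex over the 2 replicates of each line. In males 46 of the 50 receptor genes that reached the mean of 5 varied among lines, and in females 19 of 23 did. Of all transcripts tested, 86.1% varied among lines in males and 78.6% in females, so that the share of receptors was close to that of other transcripts. The median F over the receptors was 4.34 in males and 2.72 in females, against 3.10 and 1.98 over all transcripts tested in males and in females. The 4 genes that did not pass in males were Gr10a, Or10a, Ir8a and Ir94d, and in females Gr28b, Gr66a, Ir25a and Ir8a. With a term for sequencing pool in limma-trend, Ir94d passed in males (adjusted p = 0.00186) and Ir8a in females (0.0454), while Or47b did not pass in males (0.0863) and Ir21a (0.186), Or71a (0.0806) and Ir76b (0.0621) did not pass in females. The standard deviation of line means of log2 CPM had a median over genes of 0.64 in males and 0.70 in females, and that between the 2 replicates of a line had a median of 0.52 in males and 0.66 in females. The spread between line means holds part of the spread between the replicates averaged in them, so the 2 values do not compare lines and replicates directly. The spread between replicates was not negligible for the typical receptor, while most receptors still varied among lines by the F-test. Within the 76 lines whose replicates 1 and 2 in males ran on flow cells A and B, 45 of 50 receptors varied among lines, and within the other 20 lines 30 of 52. In females it was 17 of 22 within 45 lines and 12 of 21 within the other 51. Without the 9 lines with a library that counted many more gene models, 45 of 50 receptors varied among lines in males and 20 of 23 in females, where Or47b was lost in males (adjusted p = 0.0578) and Gr28b gained in females (0.0446) in edgeR's quasi-likelihood test.

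**Figure D2:**
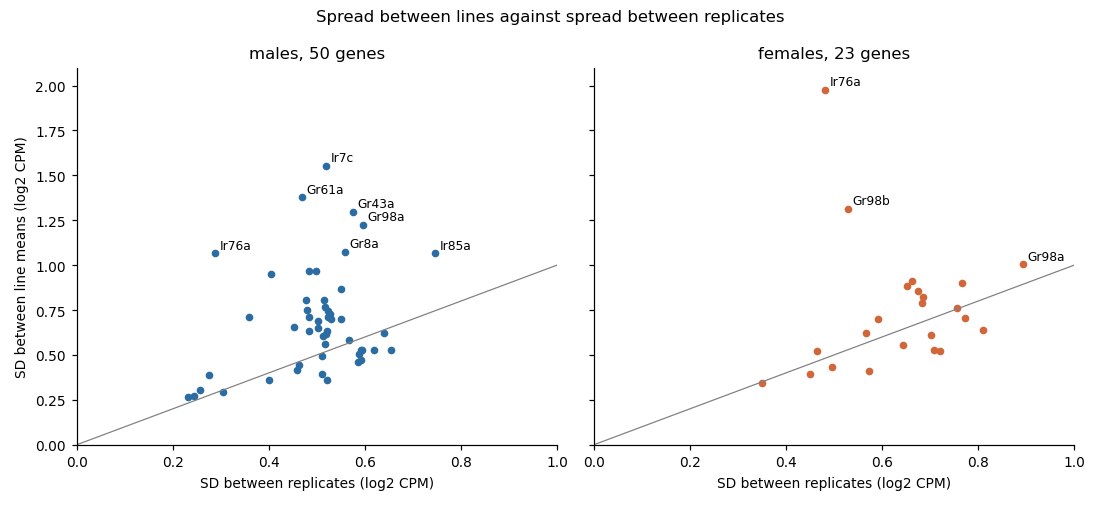
Standard deviation between the 96 line means (y axis, log2 CPM) against that between the 2 replicates of a line (x axis, log2 CPM) for the receptor genes at a mean of 5 counts, 50 in males (left) and 23 in females (right). The gray line marks equal values, and genes with an SD between lines over 1 are named, with Ir7c highest in males (1.55) and Ir76a highest in females (1.98).

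A few receptors stood far above that spread. In males the largest F for line was that of Gr61a (37.8), followed by Ir76a (33.0), Ir75a (28.6), Gr43a (21.4) and Ir64a (15.6), and Ir7c was next to these at 14.6. In females it was that of Ir76a (44.9), followed by Gr98b (16.4), Ir75a (13.5), Gr59f (10.2) and Ir68a (9.76). Each of these had an adjusted p of at most 9.99e-26 in edgeR's quasi-likelihood test with Benjamini-Hochberg adjustment. The correlation of replicate 1 with replicate 2 over lines was 0.93 in males and 0.95 in females for Ir76a, 0.90 for Ir7c, 0.89 for Gr61a and 0.82 for Gr43a in males, against a median of 0.56 over the receptors in males and 0.46 in females.

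For 6 receptors the lines were divided into groups by a gap in their levels. This was read from the widest gap between neighbouring lines, in the mean log2 level of the replicates, that left at least 5 lines on each side. It had a median of 0.16 on the log2 scale over the 73 combinations of gene and sex. The gap was over 0.5 for Ir76a and Gr98b in females and for Gr61a, Gr43a, Gr8a and Ir7c in males. Ir51a in males came next, at 0.49, so that the limit of 0.5 does not set Ir7c (0.56) far apart. The groups are a description of the levels and were not tested against each other.

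Ir76a had the widest gap, in females, at 1.51 on the log2 scale. In males the widest gap was 0.17 on the log2 scale and left 45 lines above and 51 lines below it, with medians of 10.6 CPM in the upper and 2.49 CPM in the lower lines. In females 44 lines lay between 4.69 and 18.2 CPM and 52 lines between 0.0657 and 1.56 CPM, with no line between 1.56 and 4.69 CPM. The same lines were high in both sexes. Of the 45 upper lines in males 43 were among the 44 upper lines in females, which is 95.6% of the upper lines in males and 97.7% of those in females. Both replicates of a line lay on the same side of the gap in 93 of 96 lines in males and in 94 in females. In females 21 of the 45 lines whose replicates 1 and 2 ran on flow cells A and B were upper lines, and 23 of the other 51 lines, which are similar shares.

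Gr61a and Gr43a were split in males. For Gr61a 18 lines had between 4.59 and 13.1 CPM in males and 78 lines between 0.126 and 1.66 CPM. Both replicates lay on the same side of the gap in all 96 lines. In females of the same lines no such gap appeared, where the widest gap was 0.20 on the log2 scale and the lowest, median and highest line had 0.263, 1.91 and 4.42 CPM. In line 287, the highest in males, males had 104 and 139 counts and females 28 and 35 counts. For Gr43a 14 lines had between 2.61 and 5.93 CPM in males and the other 82 lines at most 1.16 CPM, 3 of them without a count, and again both replicates of each of the 96 lines lay on the same side. Line 804, the highest in males, had 64 and 56 counts in males and 4 and 2 counts in females. Line 318, the highest in females, had 43 and 65 counts in males and 66 and 22 counts in females.

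Ir7c was split in males in the opposite sense, with many lines close to 0. There were 54 lines between 1.16 and 5.18 CPM and 42 lines between 0 and 1.08 CPM in males, the lower ones with a median of 0.0952 CPM and 6 of them without a count in either replicate. In CPM pooled over replicates the 2 groups nearly touch, and the gap of 0.56 is in the mean of the replicates' log2 levels. The level of 6 lines lay at least 3 log2 units under that of the median line in both replicates. The replicates lay on the same side of the gap in 92 of 96 lines. In females the widest gap was 0.16 on the log2 scale and the lowest line had 3.20 CPM. Of the lines so placed on flow cells A and B, 37 of 76 were in the upper group in males, and 17 of 20 among the other lines.

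**Figure D3:**
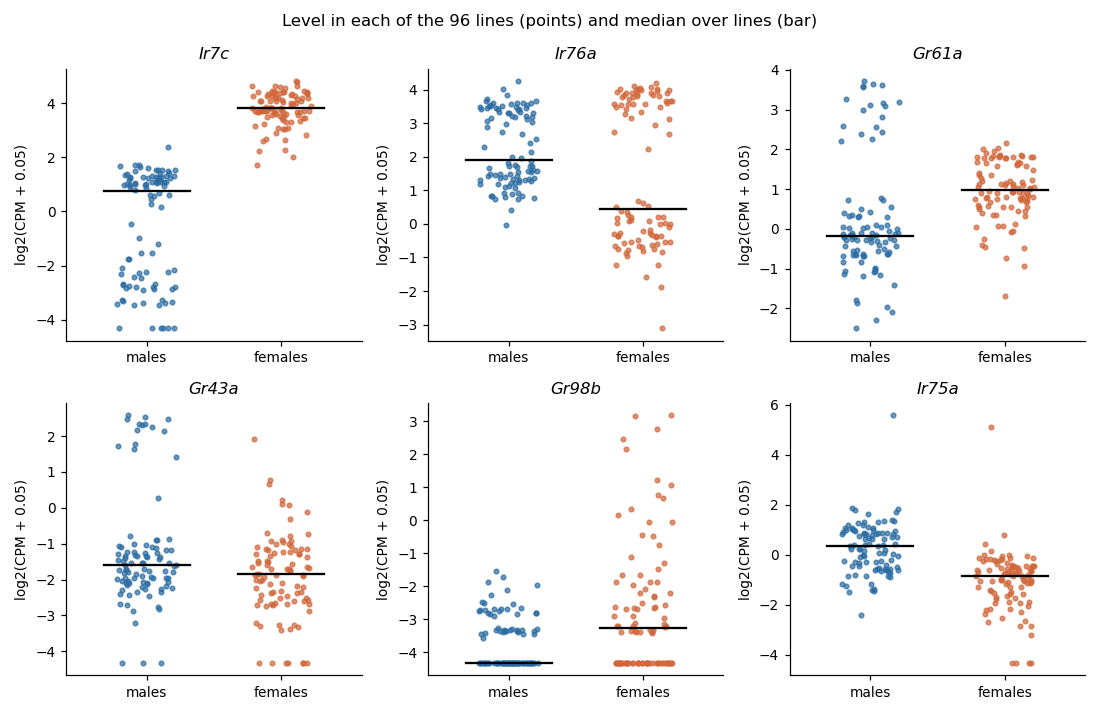
Level of 6 receptor genes in each of the 96 lines (points; log2 of CPM plus 0.05, y axis) in males (left, blue) and females (right, orange), with the median over lines as a bar. Gr61a and Gr43a fall into separate groups of lines in males and Ir76a in females, while the lines of Ir76a in males show no gap over 0.5 on the log2 scale. Ir7c in males spreads down to 0, with its 2 groups nearly touching at 1.08 and 1.16 CPM. A single line (461) lies far above the rest for Ir75a.

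Gr98b and Gr8a, both known for the response to L-canavanine, were high in few lines. Gr98b had at most 0.295 CPM in males of any line, while in females 5 lines had between 4.37 and 8.97 CPM and the other 91 lines at most 2.26 CPM, 39 of them without a count. The highest line, 362, had 0 and 0 counts in its male libraries and 79 and 95 counts in its female libraries. Gr8a had between 3.26 and 7.99 CPM in males of 5 lines and at most 2.03 CPM in the other 91 lines. In line 707, the highest, males had 75 and 78 counts and females 1 and 1 count.

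**Figure D4:**
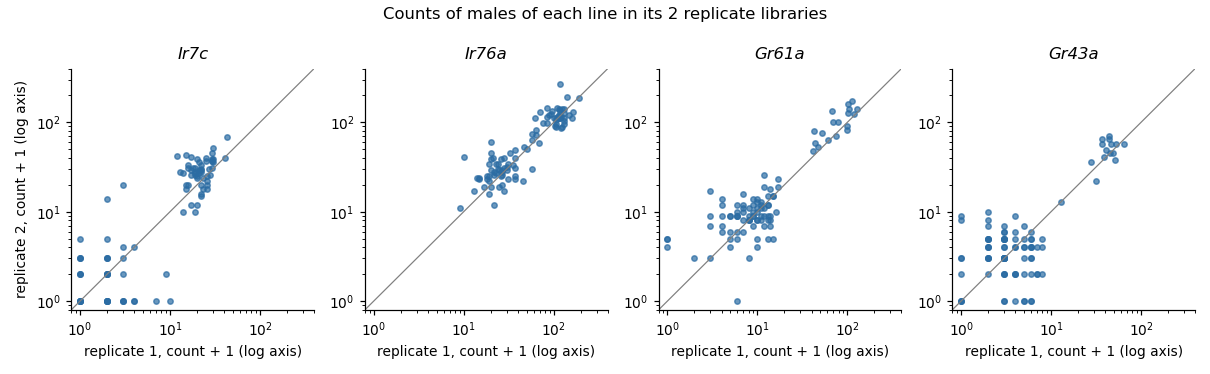
Counts of Ir7c, Ir76a, Gr61a and Gr43a in males, replicate 2 (y axis, count + 1, log axis) against replicate 1 (x axis, count + 1, log axis), with 1 point per line and a gray line at equal counts. Both replicates lay on the same side of the widest gap in 92, 93, 96 and 96 of 96 lines, a gap that for Ir76a in males was only 0.17 on the log2 scale.

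Some receptors had a single line far above all others. Ir75a, an acetic acid receptor, had 48.0 CPM in males and 34.4 in females of line 461, which was 13.3 times the next line in males and 20.2 times the next line in females. The counts were 480 and 665 in the male libraries and 262 and 351 in the female libraries of that line. Its neighbour Ir75b was also highest in line 461 in both sexes, at 5.86 CPM in males and 4.04 CPM in females. Gr59f had 16.6 CPM in males and 15.5 in females of line 355, against at most 2.07 CPM in males and 2.04 CPM in females of any other line. Ir21a was highest in line 721 in both sexes, with 75 and 89 counts in males and 53 and 52 counts in females. Ir68a was highest in females of line 786, with 61 and 76 counts in males and 98 and 391 counts in females, and its level there was 6.30 CPM in males and 24.9 CPM in females.

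Other single lines were high in 1 sex. Ir64a, an acid receptor, had 13.4 CPM in males of line 911, with 84 and 155 counts, and 8.94 CPM in males of line 208, against a median of 0.508 CPM in males. Females of line 911 had 20 and 0 counts of Ir64a. Or46a had 9.43 CPM in males of line 385, 3.02 times the next line, and 0.543 CPM in females of that line. Ir100a had 60 and 38 counts in males and no count in females of line 427. Replicate 1 of males of line 208 and replicate 1 of females of line 911 were the libraries that counted the most receptor genes. Without the 9 lines with a library that counted many more gene models, the F of Ir64a for line in males was 5.79, against 15.6 with them. Those 9 lines include 911 and 208, the 2 highest lines of Ir64a in males, so leaving them out had to lower F. The fall therefore cannot show a part of the libraries. Line 911 is among the 9 for a female library and not for its male libraries.

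Receptors under the mean of 5 in both sexes also had single high lines, and 20 of the 135 had a line at least 3 log2 units above the median line in both replicates. For 8 of these such a line was found in males and in females, and the highest line was then the same in both sexes. Or67a, an antennal receptor for esters, had 126 and 124 counts in males and 243 and 97 counts in females of line 287, or 13.5 CPM in males and 16.4 CPM in females, against at most 1.37 CPM in males and 1.06 CPM in females of any other line. Or85f, which responds to an odor of parasitoid wasps together with Or49a, had 8.58 CPM in males and 9.15 in females of line 837. Or30a, known from larvae, had 6.25 CPM in males and 3.06 in females of line 596. The neighbours Ir60b, Ir60c and Ir60d were all highest in line 320 in both sexes, with 7.44, 9.95 and 4.81 CPM in males and 2.23, 5.83 and 4.005 CPM in females. Ir60b limits the intake of sucrose, and its start lies 2139 bases from that of Ir60c, which lies 1599 bases from that of Ir60d. Ir10a in line 703 and Ir48c in line 340 completed these 8 genes, with 26 and 23 counts of Ir10a in males against 45 and 51 in females. Ir68b was high in males alone, with 8 lines at least 3 log2 units above the median line and a highest level of 3.52 CPM in males of line 437, where females had no count.

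The sex by line interaction asks whether the difference between males and females changes from line to line, and 24 of 35 receptors passed it. Of all transcripts tested 49.2% passed. The largest F were those of Gr61a (9.08), Ir76a (8.67), Ir7c (7.45), Gr43a (3.16) and Ir40a (2.67), the first 4 of which had lines in separate groups in 1 sex. Among the 22 genes at the mean of 5 in both sexes, 12 passed. The receptors that did not pass were Gr28b, Gr66a, Gr98a, Ir21a, Ir25a, Ir47b, Ir51a, Ir62a, Ir76b, Ir8a and Or71a, which include 3 of the co-receptors. In limma-trend with a term for flow cell, Gr10a (adjusted p = 0.135), Gr64a (0.173) and Ir68a (0.0767) did not pass either. Without the 9 lines with a library that counted many more gene models, 22 of 33 passed, Or63a no longer among them (adjusted p = 0.158) and Gr28b newly so (0.0449) in edgeR's quasi-likelihood test.

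Levels in males and in females of the same line were compared over the 96 lines for the 19 receptors that reached the mean of 5 in both sexes and had no such groups. The correlation was positive for each of the 19 and passed a permutation test with Benjamini-Hochberg adjustment over the 19 for 13 of them, with a median r of 0.35. It was largest for Gr98a (Pearson's r = 0.77, Spearman's rho = 0.74, permutation adjusted p = 2.38e-05 and 4.75e-05), and next for the pseudogene Ir47b (r = 0.70, rho = 0.65) and Ir75a (r = 0.64, rho = 0.52). Without the 2 lines farthest from the median in males, r was 0.76 for Gr98a, 0.69 for Ir47b and 0.44 for Ir75a, so that the value of Ir75a rested in part on line 461. The relation of Ir21a rested on its 2 farthest lines, with r = 0.35 over 96 lines and 0.05 without them. The smallest value was 0.02, for Gr28b. Without the 9 lines with a library that counted many more gene models, 14 of 19 passed.

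**Figure D5:**
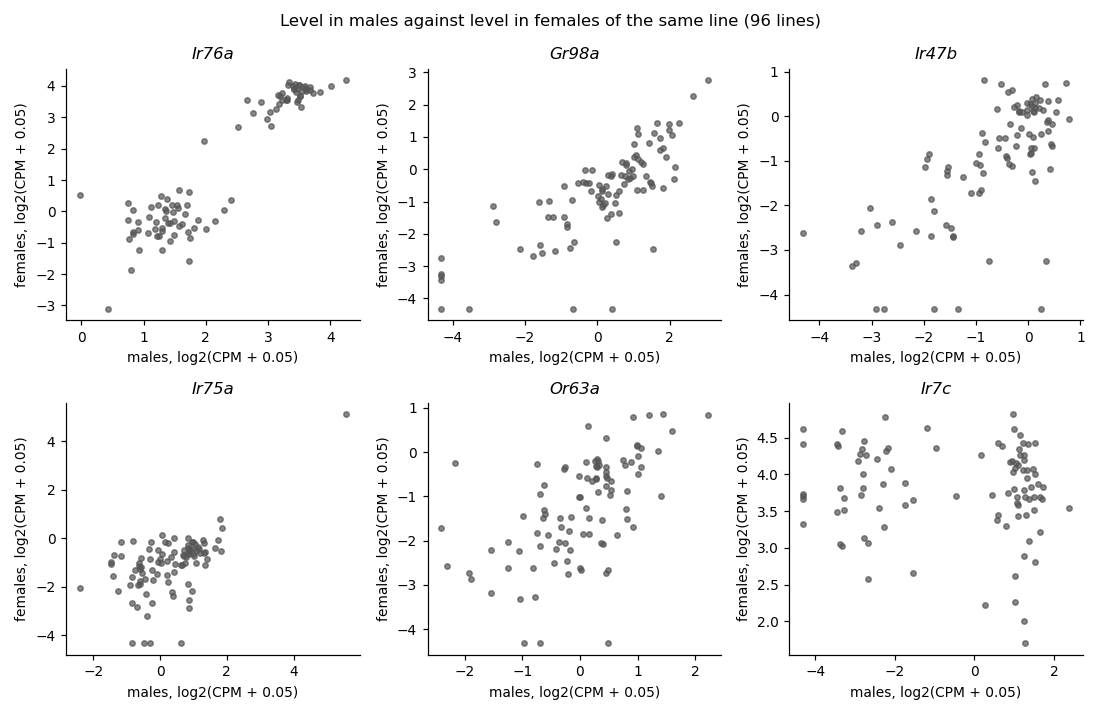
Level in females (y axis, log2 of CPM plus 0.05) against that in males (x axis, log2 of CPM plus 0.05) of the same line for 6 receptor genes, 1 point per line (96 lines). Ir76a forms 2 clouds that are high or low in both sexes, Gr98a, Ir47b and Or63a rise together in both sexes (r = 0.77, 0.70 and 0.62), Ir75a has 1 line far above the rest, and Ir7c spreads down to 0 in males alone.

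Neighbouring and overlapping genes were compared over lines for 26 pairs in males and 8 pairs in females. In males 8 pairs were correlated and in females 3 pairs, each positively, by a permutation test with adjustment over the pairs of a sex, and the pairs of Ir76a and of Gr8a, whose lines were split in 1 sex, are given within their groups of lines. Without the 9 lines with a library that counted many more gene models, 8 pairs in males and 3 in females were correlated. Pairs of receptors that are neither neighbours nor overlapping were not compared. Ir75a and Ir75b, whose starts lie 2503 bases apart, had r = 0.84 and rho = 0.89 in males (permutation adjusted p = 8.67e-05 for both), and r = 0.86 without the 2 farthest lines. Or59b and Or59c, 2135 bases apart, had r = 0.73 and rho = 0.72 in males (permutation adjusted p = 8.67e-05 for both), and r = 0.75 without the 2 farthest lines. Ir75b and Ir75c, 2420 bases apart, had r = 0.38 and rho = 0.32. Within the 76 lines so placed on flow cells A and B r was 0.85 for Ir75a and Ir75b and 0.77 for Or59b and Or59c, and within the other 20 lines 0.75 and 0.60. The value of 1e-05 is the smallest p the 100000 permutations can give.

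Among overlapping genes, Ir76a and CG14102, which share 297 exon bases on opposite strands, were compared within the lines above and below the widest gap, because the lines were split in females. In males r of Ir76a with CG14102 was 0.67 over the 45 upper lines (rho = 0.49, permutation adjusted p = 8e-05 and 0.00632) and 0.05 over the 51 lower lines. In females r was 0.43 over the 44 upper lines (rho = 0.39, permutation adjusted p = 0.0118 and 0.0329) and −0.01 over the 52 lower lines. CG14102 averaged 5.14 CPM in males and 15.7 CPM in females. The libraries keep the strand of the RNA, but whether the counting used it is not given in the sources used here, so that reads of the 2 genes cannot be told apart with certainty where they overlap. Ir47a and SLO2 had r = 0.40 in males and 0.29 in females, Or43b and Cul1 r = 0.06 in males and 0.35 in females, and Or23a and Prosbeta4R2 r = 0.31 in males. Ir62a and Iml1 (r = 0.01 in females) and Or71a and Plp (r = 0.21 in males, 0.23 in females) did not pass the test. Over the 91 lower lines in males Gr8a and CG12121, on the other strand, had r = 0.30 and rho = 0.26 (permutation adjusted p = 0.0118 and 0.0358).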

How the data were processed

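RNA of whole flies was depleted of ribosomal RNA with Ribo-Zero and sequenced as 125 bp single reads from directional libraries. The authors trimmed reads with cutadapt 1.6, removed ribosomal reads with BWA 0.7.10, aligned with STAR 2.4.0e to BDGP5 and deposited raw counts per gene model from HTSeq-count with the FlyBase release 5 annotation. Entries that name no gene held 2.86% (no feature), 1.39% (ambiguous) and 25.8% (not unique) of all counts in the table and stayed out of library sizes and tests.

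Library sizes were scaled by TMM. Tests were edgeR 4.0.16 quasi-likelihood tests (glmQLFit and glmQLFTest) for transcripts that averaged 5 or more counts over the libraries fitted, with Benjamini-Hochberg adjustment over all of them and a threshold of 0.05. The sex difference was fitted on the sum of 2 replicates blocked by line, that of line on single libraries within each sex, and the interaction over 384 libraries. Standard errors came from limma 3.58.1 (limma-trend), and DESeq2 1.42.0 served as an alternative, in R 4.3.3. The fold changes printed beside these standard errors are those of edgeR, and the estimates of limma-trend could differ. They were 2.76 for Gr32a and 0.76 for Ir76a, against 2.99 and 0.51 in edgeR. Levels are CPM pooled over 2 replicates. Correlations used log2 CPM averaged per line (prior count 2) and 100000 permutations in Python 3.11.15, numpy 2.4.6, pandas 2.3.3 and scipy 1.17.1, and plots matplotlib 3.10.9. Alternatives were other scalings, filters and tools, single replicates, flow cell or pool terms and sets of lines. The tests were also run on simulated data. All 188 changed genes were found for sex (30 lines, 17983 genes, 8 false calls). All 200 were found for line in females (96 lines, 14547 genes, 15 false calls). For the interaction all 200 were found (24 lines, 17948 genes, 10 false calls). The simulation gave every gene the same dispersion, used changes of a set size or spread and held no effect of flow cell. It therefore does not give the power for receptors near the mean of 5 counts or with smaller changes.

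Members and gene lists were chosen with earlier results of these data known. Genes are named by size of the sex difference (5 in each direction), F for line (5 in each sex) and for the interaction (5), level per kb (3 of each family and sex), role, or a line at least 3 log2 units from the median line, and other names were chosen after their values were seen. Nothing in the labels says that replicates came from separate cultures, so p-values measure only the spread between these libraries. Replicates of a line and sex correlated between 0.916 and 0.998, and none were identical. Exon lengths and overlaps came from the BDGP6 annotation, so no coordinates are given. Flies on standard medium were not analysed here, and Wolbachia status was not fitted.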

Additional observations from a re-analysis of the deposited data

Results flagged for a closer look

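The effect of line differed between males and females for 24 receptors, by the F of the sex by line interaction in edgeR's quasi-likelihood test. It was 9.08 for Gr61a, 8.67 for Ir76a, 7.45 for Ir7c and 3.16 for Gr43a. Among the other Gr genes it was 2.59 for Gr64f, 2.27 for Gr59f, 2.18 for Gr32a, 1.78 for Gr64a and 1.52 for Gr10a. Among Or genes it was 2.61 for Or1a, 2.59 for Or59c, 2.05 for Or59b, 1.78 for Or46a, 1.68 for Or43b and 1.41 for Or63a. Among the other Ir genes it was 2.67 for Ir40a, 2.67 for Ir64a, 2.50 for Ir85a, 2.099 for Ir68a, 1.85 for Ir47a, 1.62 for Ir31a, 1.62 for Ir41a, 1.57 for Ir75a and 1.43 for Ir75b. With a term for flow cell in limma-trend, Gr10a (adjusted p = 0.135), Gr64a (0.173) and Ir68a (0.0767) did not pass. In limma-trend without that term Gr64a (0.137), Or63a (0.0701) and Ir31a (0.0812) did not pass. The median F over all transcripts tested was 1.39.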

How the results depend on the processing

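Counts of receptors called stayed within 1.5 times of those reported under other scalings and tools, with a term for flow cell or pool and without the 9 lines whose libraries counted many more gene models (chosen after seeing the data). With no filter on low counts, 184 receptors were tested, of which 109 were higher and 20 lower in males, 91 varied among lines in males and 66 in females. At a mean of at least 50 counts, 1 receptor was higher and 1 lower in males of 2 tested, 3 of 3 varied among lines in males and 3 of 3 in females, and 2 of 2 passed the interaction. In the lines not placed on flow cells A and B, 30 of 52 receptors varied in males and 12 of 21 in females, and 3 pairs were correlated in males and 1 in females, and the cause was not tested. Without a replicate, between 28 and 32 receptors were higher and between 4 and 5 lower in males. The line effect without a replicate could not be fitted, since no residual degrees of freedom remain.

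The main tests did not pair males and females by replicate number. Deviations of males and females with the same number correlated over 0.1 in 54 of 96 lines. The median correlation was 0.13 within lines, against 0.0594 between different lines, and whether the numbers pair the samples was not tested. With a replicate block, 30 receptors were higher and 5 lower in males, 46 varied among lines in males and 19 in females, and 21 passed the interaction. The fold change of Ir64a was 0.60 with the replicate block. Single results were followed for the receptors named by size, F, level, role or a far line, and for the pairs correlated in the main test. In that set no sex fold change and no correlation of a pair turned its direction. Correlations that did not pass could turn. That of Gr28b between males and females was r = 0.02 over 96 lines and −0.12 over the 52 lines not placed on flow cells A and B in both sexes. Single calls in the set changed 47 times. Of these changes 8 were correlations, and the most were for the line effect (15 lost in males, 13 lost and 4 gained in females). Receptors outside that set are not in these counts, such as Ir94d, gained in males with the pool term. Depth limits most receptors, 135 of which stayed under the mean of 5 counts.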
